A study of Mus musculus with 8 samples.

Results

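The 49 genes described here make up the DNA repair and checkpoint set, which was measured in mouse kidney epithelial cells that are null or heterozygous for Pkd1, with THZ1 or its solvent DMSO. They were taken by symbol from the 18631 genes listed in every library, and all 49 were found. The set has 8 branches. The damage kinases hold 4 genes, the damage sensors and mediators 6, homologous recombination 12, Fanconi anaemia 9, end joining 5, mismatch repair 4, single-strand break repair 3 and nucleotide excision repair 6. The 4 groups, with 2 libraries each, were Pkd1-/- cells (the line null(PN), "null" below) with THZ1, null cells with DMSO, Pkd1+/- cells (the line pkd1(PH), "heterozygous" below) with THZ1, and heterozygous cells with DMSO. THZ1 is a covalent inhibitor of CDK7, the kinase of the general transcription factor TFIIH, and is also known to reach CDK12 and CDK13, and it was given at 50 nM for 6 h. Pkd1, the gene for polycystin-1, is the one most often mutated in autosomal dominant polycystic kidney disease. Neither line carries 2 intact copies of it. Both lines were grown in the same DMEM-F12 medium with serum, insulin-transferrin-selenium, interferon gamma and T3. Each genotype was 1 cell line, so effects of the genotype and of the line cannot be told apart. The labels do not say that the 2 libraries of a group came from separate cultures, and the p-values thus rest on a spread between libraries that may be technical.

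Cells meet DNA damage with a signalling arm and several repair arms. The kinases ATM and ATR are recruited to breaks and to stalled replication forks by sensor proteins, and through CHK2 and CHK1 they hold the cell cycle. Double-strand breaks are rejoined by end joining at any cell cycle stage or copied from the sister chromatid by homologous recombination in S and G2 phase. The Fanconi anaemia proteins undo crosslinks between the strands, mismatch repair corrects copying errors, and the excision pathways replace damaged bases or short stretches of a single strand. Many of the recombination and Fanconi genes are transcribed mainly in cycling cells, and loss of CDK12 activity is known to lower long repair genes.

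Depth was estimated at 17.3 to 18.3 M fragments per library from the steps between low values, and 14007 to 15439 genes were above 0 in a library. Pkd1 had 1.69 and 1.32 FPKM in null cells, against 4.58 and 5.30 FPKM in heterozygous cells, under DMSO (log2 difference -1.25 ± 0.10, adjusted p = 1.99e-07). An FPKM value counts fragments relative to transcript length and library size. All 49 members had a mean of at least 1 FPKM over the 8 libraries and were tested. The lowest was Fancf at 0.54 FPKM in a null THZ1 library, which stands for about 16 fragments. Of 10 kidney epithelium markers, 7 were at 1 FPKM or more in every group, while Epcam, Cdh1 and Lhx1 stayed below 0.5 FPKM in all libraries. The summed markers reached 766 to 775 FPKM in null THZ1 cells, 806 to 815 FPKM in null DMSO cells, 1076 to 1108 FPKM in heterozygous THZ1 cells and 1044 to 1129 FPKM in heterozygous DMSO cells. Of the 7 tested, 6 were called lower and 1 higher in null than in heterozygous cells under DMSO (median log2 difference -0.53). Under THZ1 the counts were also 6 and 1 (median -0.96). Of all tested genes 41% were lower and 29% higher under DMSO, and 58.1% and 25.1% under THZ1. Of 7 fibroblast markers Col1a1 alone was at 1 FPKM or more, and it was called higher in null than in heterozygous cells under DMSO, with a log2 difference of 2.14. Of 5 endothelial markers 0 reached that level, and of 5 leukocyte markers Cd68 alone did. Cd68 was called lower in null than in heterozygous cells under DMSO, at -0.37. The part of these differences in the results below was not tested.

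The group with the lowest mean was null THZ1 for 40 of the 49 members, null DMSO for 7 and heterozygous DMSO for 2. The highest mean was in heterozygous DMSO cells for 26 members, in heterozygous THZ1 cells for 19, in null DMSO cells for 3 and in null THZ1 cells for 1. Rad51c, a gene needed for homologous recombination and crosslink repair, differed most between the groups. It had 0.96 and 0.67 FPKM in null THZ1 cells, 3.63 and 3.43 FPKM in null DMSO cells, 8.39 and 9.12 FPKM in heterozygous THZ1 cells and 11.2 and 11.3 FPKM in heterozygous DMSO cells. No 2 of these groups overlapped. How often groups lay apart over all tested genes was not counted, so a lack of overlap, here and below, is description alone.

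**Figure D1:**
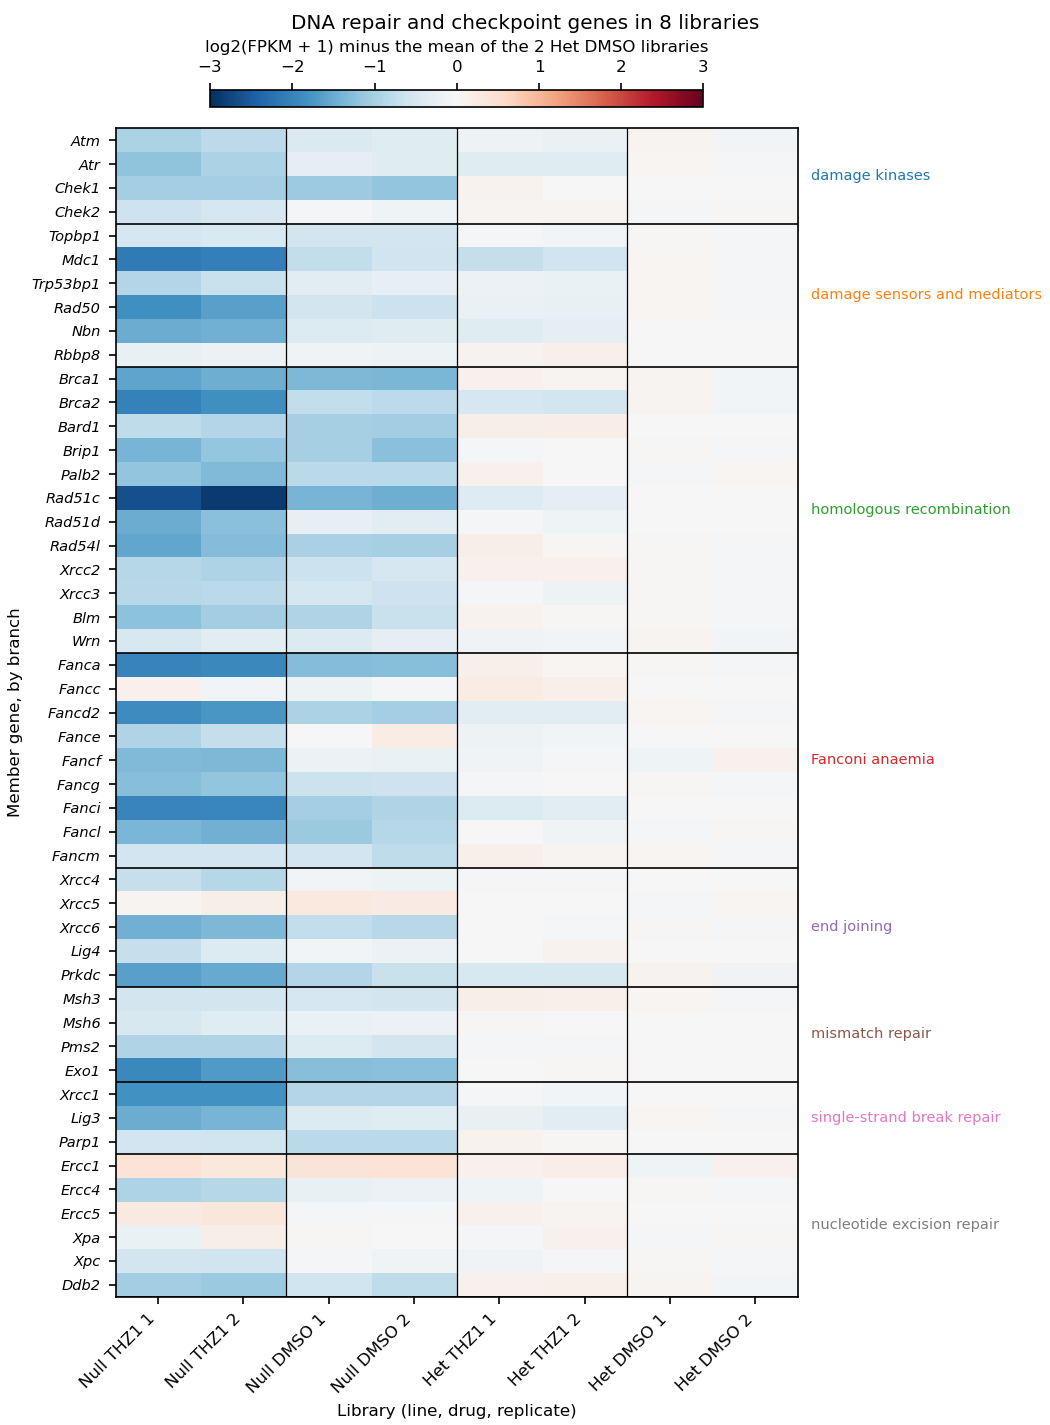
Each cell is 1 member in 1 library, coloured by log2(FPKM + 1) minus the mean of the 2 heterozygous DMSO libraries, with null THZ1 libraries at the left and branches from top to bottom. Blue fills most of the 2 null THZ1 columns, paler blue the null DMSO columns, and the heterozygous THZ1 columns stay near white except for a few members such as Mdc1 and Brca2.

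The first comparison set null against heterozygous cells without drug. In null DMSO cells 37 of the 49 members were lower and 2 were higher than in heterozygous DMSO cells, while 10 were not called. A member was called at an adjusted p below 0.05 by limma, with p-values adjusted over all 10731 tested genes. Of all tested genes 41% were called lower and 29% higher, so most genes differed between the lines. Differences are given as null minus heterozygous on the log2(FPKM + 1) scale, with limma's standard error. The median over the members was -0.58, against -0.07 over all tested genes. By branch, all 12 homologous recombination genes, all 4 mismatch repair genes and all 3 single-strand break repair genes were lower, as were 5 of 6 sensors and mediators, 3 of 4 damage kinases and 6 of 9 Fanconi genes. Only 2 of 5 end joining genes and 2 of 6 nucleotide excision repair genes were lower, and each of these branches had 1 member called higher. The difference was below -1 for 7 members, against 3.44% of all tested genes.

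Among the kinases Chek1, which encodes the checkpoint kinase CHK1 that acts after ATR, stood furthest apart. It had 5.18 and 4.81 FPKM in null cells, against 12.02 and 12.2 FPKM in heterozygous cells (-1.13 ± 0.07, adjusted p = 1.64e-08). Atm and Atr, the kinases at the head of the break and the replication stress responses, differed less. Atm had 4.47 and 4.79 FPKM in null cells, against 6.88 and 6.02 FPKM in heterozygous cells (-0.40 ± 0.09, adjusted p = 0.00111). Atr had 5.33 and 4.89 FPKM in null cells, against 6.93 and 6.28 FPKM in heterozygous cells (-0.32 ± 0.09, adjusted p = 0.00916), and it lost its call without null DMSO replicate 2 (adjusted p = 0.0733) or without heterozygous DMSO replicate 1 (adjusted p = 0.0735). Chek2, the kinase activated by ATM, had 19.1 and 17.5 FPKM in null cells, against 18.9 and 19.9 FPKM in heterozygous cells, and its groups overlapped (-0.08, adjusted p = 0.266). The groups of the other 3 kinases did not overlap.

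The sensors and mediators were lower by moderate amounts. Mdc1, the adaptor that binds phosphorylated histone H2AX around a break, had 10.6 and 11.7 FPKM in null cells, against 19.01 and 17.5 FPKM in heterozygous cells (-0.66 ± 0.07, adjusted p = 4.48e-06). For Rad50, a subunit of the complex that tethers broken ends, the values were 12.9 and 12.02 FPKM in null cells, against 20.1 and 18.6 FPKM in heterozygous cells (-0.59 ± 0.08, adjusted p = 1.68e-05). Topbp1, an activator of ATR, had 27.1 and 27.1 FPKM in null cells, against 41.1 and 39.7 FPKM in heterozygous cells (-0.56 ± 0.05, adjusted p = 2.21e-07). In each of these 3 genes both null libraries lay below both heterozygous ones. Nbn, the partner of RAD50 that binds ATM, differed by -0.38 and Trp53bp1, the mediator 53BP1, by -0.28, both called. Rbbp8, whose product CtIP starts the trimming of broken ends, was not called at -0.13 (adjusted p = 0.059).

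All 12 homologous recombination genes were lower, by 0.28 to 1.43 on the log2 scale. Rad51c had 3.63 and 3.43 FPKM in null cells, against 11.2 and 11.3 FPKM in heterozygous cells (-1.43 ± 0.09, adjusted p = 1.63e-08), which is a ratio of 0.37 in FPKM + 1. Brca1, whose product recruits the recombination machinery and ubiquitinates chromatin, had 4.81 and 4.65 FPKM in null cells, against 14.6 and 12.9 FPKM in heterozygous cells (-1.36 ± 0.08, adjusted p = 6.83e-09). Brip1 encodes the helicase that binds BRCA1, and it had 3.19 and 2.5 FPKM in null cells, against 7.56 and 7.07 FPKM in heterozygous cells (-1.12 ± 0.10, adjusted p = 6.18e-07). The lines did not overlap for any of these. The partner of BRCA1, Bard1, differed by -1.01, the motor protein gene Rad54l by -0.98, and Palb2, which bridges BRCA1 and BRCA2, by -0.81. Blm and Wrn, both RecQ helicases, stood at -0.78 and -0.35. Brca2, a tumour suppressor gene that homologous recombination requires, was at -0.77, and the recombination genes Xrcc2, Xrcc3 and Rad51d were at -0.58, -0.58 and -0.28. All 9 were called, and Rad51d lost its call without null DMSO replicate 2 (adjusted p = 0.0624).

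The Fanconi genes fell into a group that was much lower and a group that was not called. Fanca, a subunit of the core ubiquitin ligase complex, had 5.33 and 5.35 FPKM in null cells, against 14.8 and 14.2 FPKM in heterozygous cells (-1.29 ± 0.07, adjusted p = 4e-09). Fancl, the ligase subunit of that complex, had 5.21 and 6.51 FPKM in null cells, against 12.2 and 12.8 FPKM in heterozygous cells (-0.98 ± 0.09, adjusted p = 4.89e-07). The target of the ligase, Fancd2, had 4.03 and 3.77 FPKM in null cells, against 9.06 and 8.26 FPKM in heterozygous cells (-0.98 ± 0.08, adjusted p = 2.84e-07). None of these 3 overlapped between the lines. Fanci, the partner of FANCD2, was called at -0.97, Fancg of the core complex at -0.64, and Fancm, the translocase that anchors the complex on DNA, at -0.66. The core complex members Fancc, Fance and Fancf were not called, at -0.09, 0.12 and -0.18. Fancf was called lower without heterozygous DMSO replicate 1 (-0.30, adjusted p = 0.0254).

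End joining was mixed. The 2 subunits of the Ku ring, which caps broken ends, went opposite ways. Xrcc6, the Ku70 gene, had 20.3 and 19.3 FPKM in null cells, against 35.4 and 34.1 FPKM in heterozygous cells (-0.78 ± 0.06, adjusted p = 5.47e-08), and Xrcc5, the Ku80 gene, had 18.3 and 17.6 FPKM in null cells, against 14.1 and 15.3 FPKM in heterozygous cells (0.27 ± 0.06, adjusted p = 0.00137). Neither gene overlapped between the lines. The catalytic kinase subunit that Ku recruits, Prkdc, had 2.94 and 3.56 FPKM in null cells, against 6.89 and 5.73 FPKM in heterozygous cells (-0.78 ± 0.10, adjusted p = 1.53e-05). Xrcc4 and Lig4, which together seal the ends, were not called, at -0.11 and -0.14.

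In mismatch repair the exonuclease gene Exo1, which removes the strand with the error, had 3.56 and 3.63 FPKM in null cells, against 10.01 and 10.2 FPKM in heterozygous cells (-1.27 ± 0.08, adjusted p = 2.72e-08). Msh3, the partner in the mismatch sensor for longer loops, had 4.04 and 3.91 FPKM in null cells, against 6.5 and 5.83 FPKM in heterozygous cells (-0.52 ± 0.07, adjusted p = 3.78e-05), and Pms2, a subunit of the downstream nuclease, had 8.03 and 7.2 FPKM in null cells, against 11.2 and 10.9 FPKM in heterozygous cells (-0.48 ± 0.07, adjusted p = 3.57e-05). The lines did not overlap for these 3. The fourth gene, Msh6, which recognises single mismatches, was called at -0.19.

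Single-strand break repair was lower throughout. Xrcc1, the scaffold of the pathway, had 26.3 and 26.4 FPKM in null cells, against 49.05 and 50.2 FPKM in heterozygous cells (-0.89 ± 0.04, adjusted p = 2.33e-09). Parp1, the sensor that marks nicks with poly(ADP-ribose), had 26.8 and 26.7 FPKM in null cells, against 48.5 and 47.1 FPKM in heterozygous cells (-0.81 ± 0.04, adjusted p = 5.19e-09). Lig3, the ligase bound by XRCC1, had 10.6 and 11.1 FPKM in null cells, against 15.1 and 13.9 FPKM in heterozygous cells (-0.39 ± 0.07, adjusted p = 0.000218). No null library reached a heterozygous one for any of them.

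Nucleotide excision repair differed least, with a branch median of -0.06. Ddb2, the sensor of ultraviolet lesions, had 3.64 and 3.19 FPKM in null cells, against 6.52 and 5.64 FPKM in heterozygous cells (-0.68 ± 0.09, adjusted p = 1.38e-05). Ercc1, a subunit of the nuclease that cuts on the 5′ side of a lesion, was called higher, with 17.2 and 17.7 FPKM in null cells, against 11.7 and 14.4 FPKM in heterozygous cells (0.40 ± 0.08, adjusted p = 0.000594). Its partner in that nuclease, Ercc4, had 4.86 and 5.06 FPKM in null cells, against 6.04 and 5.71 FPKM in heterozygous cells (-0.21 ± 0.08, adjusted p = 0.0332), and this call was lost under all 3 other scalings (adjusted p = 0.0857 to 0.102) and with null DMSO replicate 1, null DMSO replicate 2 or heterozygous DMSO replicate 1 left out in turn (adjusted p = 0.0688 to 0.142). The nuclease gene Ercc5, the scaffold gene Xpa and the damage sensor gene Xpc were not called, at -0.06, 0.02 and -0.07. Xpa, with 4.79 and 4.68 FPKM in null cells, against 4.49 and 4.83 FPKM in heterozygous cells, overlapped between the lines.

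**Figure D2:**
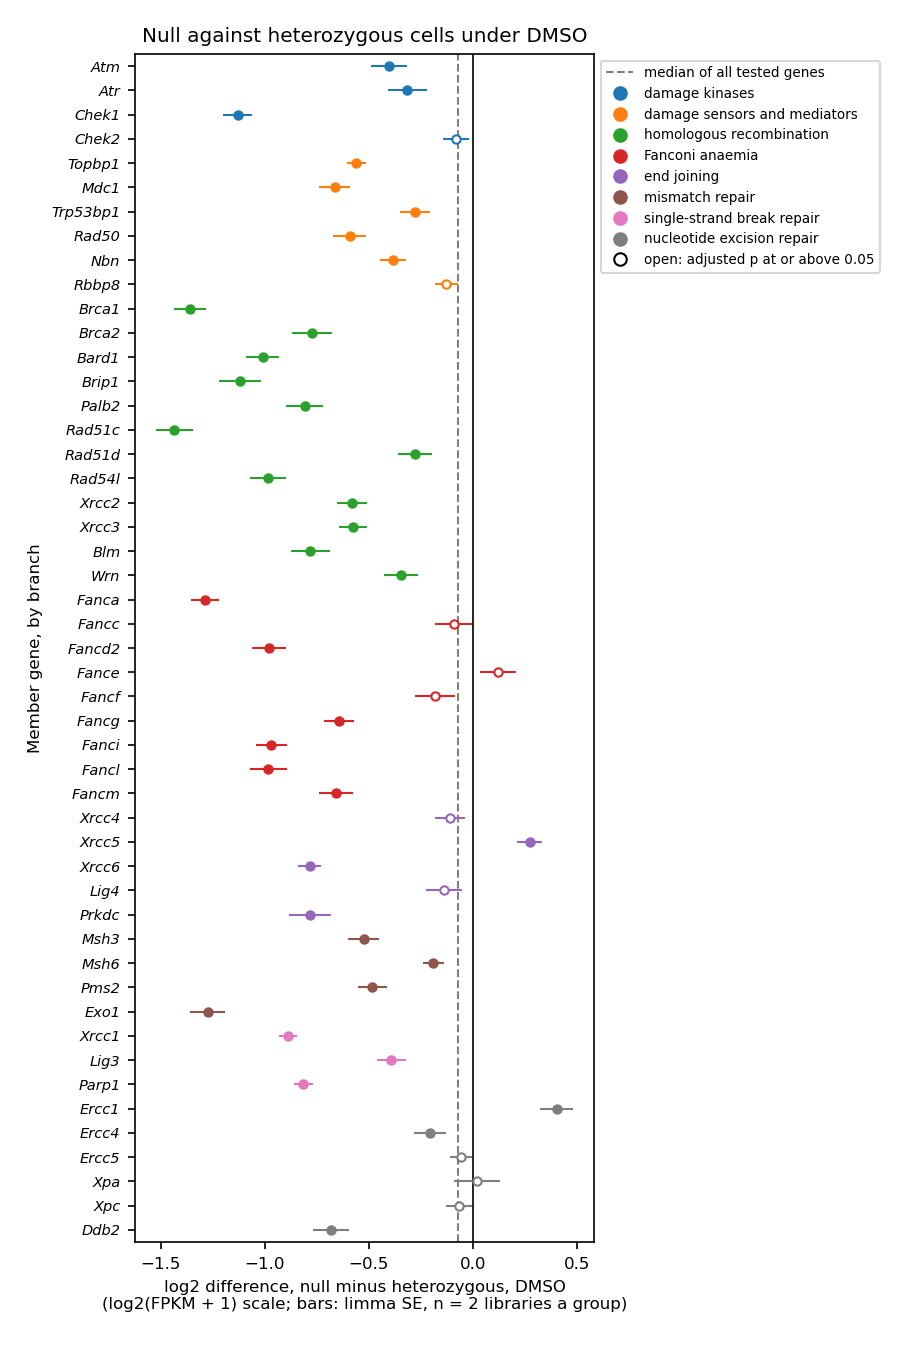
Points give the log2 difference of each member, null minus heterozygous cells under DMSO, with limma's standard error from groups of 2 libraries, coloured by branch and open where the adjusted p was at or above 0.05. Homologous recombination, mismatch repair and single-strand break repair lie wholly left of 0, and the right-hand side holds the called Xrcc5 (0.27) and Ercc1 (0.40).

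Genes of the cell cycle moved with this contrast. All 28 genes of a list of S-phase and mitosis genes were lower in null cells under DMSO, with a median of -1.01, beyond the members' -0.58, and under each of the 3 other scalings as well, and 12 of 19 E2F and cell cycle regulator genes were lower with 0 higher. Among a further 80 repair genes outside the set, 78 were tested, 56 were lower and 7 higher, with a median of -0.42. The shares of all tested genes were 41% lower and 29% higher. In bulk RNA, fewer cycling cells and less RNA per cell cannot be told apart, and the part of the cell cycle in the members' differences was not tested.

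The promoter windows of 4 members with an E2F motif and of 2 without one are printed because E2F factors are known activators of S-phase repair genes. RefSeq windows of GRCm38.p6, from 250 bases before to 50 after the transcription start, were at hand for 38 of the 49 members. Only the first window listed for a gene was used, so the presence and place of a motif refer to that start alone. The windows of Rad51c, Brca2 and Ercc5 lie inside the annotated span of the gene. The motif searched was TTTGGCG or TTTCGCG on either strand. It occurred in 6 of the 38 members' windows (15.8%), namely those of Rad51c, Chek1, Brip1, Brca2, Topbp1 and Msh3, against 4.7% of 8689 windows of tested genes and 6 of 23 windows of S-phase and mitosis genes. The 4 members shown had the largest decreases among those with a motif, and Xpa and Ercc5 had the smallest differences among those without. Sequences run 5′ to 3′ along the gene, and capitals mark the motif on either strand.
Rad51c, chr11:87404457-87404756, minus strand: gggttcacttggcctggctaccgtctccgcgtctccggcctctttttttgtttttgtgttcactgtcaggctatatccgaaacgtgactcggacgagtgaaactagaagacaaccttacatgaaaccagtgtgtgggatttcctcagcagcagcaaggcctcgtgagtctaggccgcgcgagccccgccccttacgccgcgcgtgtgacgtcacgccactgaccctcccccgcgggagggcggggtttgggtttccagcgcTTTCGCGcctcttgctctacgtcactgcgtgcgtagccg
Chek1, chr9:36726609-36726908, minus strand: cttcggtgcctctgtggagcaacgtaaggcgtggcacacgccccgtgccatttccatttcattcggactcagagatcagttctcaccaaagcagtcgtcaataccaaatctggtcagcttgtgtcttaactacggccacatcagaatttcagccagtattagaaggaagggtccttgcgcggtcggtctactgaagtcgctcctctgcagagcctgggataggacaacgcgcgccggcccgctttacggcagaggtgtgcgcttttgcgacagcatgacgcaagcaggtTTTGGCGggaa
Brip1, chr11:86201144-86201443, minus strand: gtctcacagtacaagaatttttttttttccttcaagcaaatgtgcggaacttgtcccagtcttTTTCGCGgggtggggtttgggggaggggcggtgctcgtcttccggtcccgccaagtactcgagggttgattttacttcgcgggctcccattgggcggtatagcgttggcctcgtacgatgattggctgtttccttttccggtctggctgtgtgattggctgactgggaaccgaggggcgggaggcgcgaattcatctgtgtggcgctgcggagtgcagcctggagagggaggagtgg
Brca2, chr5:150522371-150522670, plus strand: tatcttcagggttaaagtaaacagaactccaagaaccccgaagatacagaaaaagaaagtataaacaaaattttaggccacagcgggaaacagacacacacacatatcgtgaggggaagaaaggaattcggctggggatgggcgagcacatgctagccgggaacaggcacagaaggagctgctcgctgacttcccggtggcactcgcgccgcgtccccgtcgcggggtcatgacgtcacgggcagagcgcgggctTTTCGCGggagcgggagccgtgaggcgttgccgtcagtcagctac
Xpa, chr4:46196262-46196561, minus strand: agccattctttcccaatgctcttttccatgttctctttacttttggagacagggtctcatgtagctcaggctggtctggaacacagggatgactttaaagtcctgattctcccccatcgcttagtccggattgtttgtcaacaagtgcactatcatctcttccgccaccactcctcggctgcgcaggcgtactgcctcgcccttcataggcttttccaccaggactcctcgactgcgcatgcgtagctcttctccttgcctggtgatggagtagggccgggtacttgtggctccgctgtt
Ercc5, chr1:44147494-44147793, plus strand: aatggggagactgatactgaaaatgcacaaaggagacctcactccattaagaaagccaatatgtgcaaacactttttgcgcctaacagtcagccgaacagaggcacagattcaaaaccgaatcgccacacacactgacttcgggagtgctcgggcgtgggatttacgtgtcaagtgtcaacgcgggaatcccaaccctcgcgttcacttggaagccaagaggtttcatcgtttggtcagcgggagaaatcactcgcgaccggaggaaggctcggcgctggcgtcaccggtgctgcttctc
In Rad51c, Chek1 and Brca2 the motif lay within 50 bases after the start, and in Brip1 it lay 187 bases before it. All 6 members with the motif were called lower in null cells under DMSO (median -0.95), and 22 of 32 without it (median -0.44). Over all tested genes the shares called lower were 49.6% with the motif and 41.5% without it. A match is a run of letters and not a shown binding site. Of other motifs, CCAAT occurred in 22 of the 38 windows (57.9%, against 39.7% of all windows), TTTGAA, the core of the cell cycle homology region, in 2 (5.3%, against 11.5%), the palindrome read by NRF1 in 1 (2.6%, against 2.3%), and TATAAA in 2 (5.3%, against 6.3%).

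The second comparison gave the response of heterozygous cells to THZ1. After 6 h, 9 members were lower and 0 were higher with THZ1 than with DMSO, where 10.3% of all tested genes were called lower and 12.2% higher. The 9 were spread over 6 branches, and none came from mismatch or nucleotide excision repair. The median over the members was -0.04, against 0.01 over all tested genes, and 0 members had a difference below -1 (0.0373% of all tested genes). Scaled by library totals, 10 members were lower and 0 higher, beside 13.9% and 7.02% of all tested genes. Here and for null cells, differences are THZ1 minus DMSO.

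Mdc1 changed most in heterozygous cells, with 10.7 and 11.6 FPKM with THZ1, against 19.01 and 17.5 FPKM with DMSO (-0.66 ± 0.07, adjusted p = 0.000214). Brca2 had 3.44 and 3.3 FPKM with THZ1, against 5.71 and 4.92 FPKM with DMSO (-0.53 ± 0.10, adjusted p = 0.00316), and Prkdc had 4.23 and 4.21 FPKM with THZ1, against 6.89 and 5.73 FPKM with DMSO (-0.48 ± 0.10, adjusted p = 0.00658). THZ1 and DMSO libraries did not overlap for these 3 genes. The other 6 changed by less. Fanci had 7.55 and 8.02 FPKM with THZ1, against 10.2 and 10.5 FPKM with DMSO (-0.37 ± 0.07, adjusted p = 0.00545), Atr had 4.91 and 4.93 FPKM with THZ1, against 6.93 and 6.28 FPKM with DMSO (-0.36 ± 0.09, adjusted p = 0.0174), and Fancd2 had 6.63 and 6.59 FPKM with THZ1, against 9.06 and 8.26 FPKM with DMSO (-0.34 ± 0.08, adjusted p = 0.0116). Of the remaining 3, Rad51c was called at -0.33, Nbn at -0.33 and Lig3 at -0.26. These groups too were apart in all 6 genes. The count rests on few libraries. Only Mdc1 and Brca2 kept their calls under every alternative run that tested them, and Brca2 was not tested at a minimum of 5 FPKM. With 1 library left out at a time, the members' median lay between -0.05 and -0.02.

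The 40 members not called in heterozygous cells ranged from -0.21 for Rad50 to 0.19 for Bard1 and Fancc. Rad50 and Trp53bp1 were called lower with either null THZ1 library left out (adjusted p = 0.0325 to 0.0441), and Ercc1 was called higher without heterozygous DMSO replicate 2 (adjusted p = 0.015). Brca1, with 15.1 and 14.6 FPKM with THZ1, against 14.6 and 12.9 FPKM with DMSO, and Fanca, with 16.3 and 15.1 FPKM with THZ1, against 14.8 and 14.2 FPKM with DMSO, were slightly higher with THZ1 but did not pass (adjusted p = 0.32 and 0.269). Chek1, with 13.1 and 11.9 FPKM with THZ1, against 12.02 and 12.2 FPKM with DMSO, overlapped between THZ1 and DMSO. Groups of 2 libraries can also lie apart without a call, as those of Rad50 did here.

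The third comparison gave the response of null cells to the same dose and time. With THZ1, 35 members were lower and 3 were higher than with DMSO, while 11 were not called, where 51.1% of all tested genes were called lower and 24.6% higher. The median over the members was -0.45, against -0.17 over all tested genes, and the difference was below -1 for 9 members, against 8.48% of all tested genes. All 5 end joining genes were lower, as were 7 of 9 Fanconi genes, 4 of 6 sensors and mediators, 3 of 4 kinases, 3 of 4 mismatch repair genes, 2 of 3 single-strand break repair genes, 8 of 12 homologous recombination genes and 3 of 6 nucleotide excision repair genes. The branch medians ran from -0.93 for single-strand break repair and -0.79 for the sensors to -0.33 for homologous recombination and for mismatch repair and -0.22 for nucleotide excision repair. All 9 members that were lower with THZ1 in heterozygous cells were among the 35, a share of 25.7% of them. Of the 1100 tested genes lower in heterozygous cells 88.1% were also lower in null cells, which is 17.7% of those lower there. With THZ1 in null cells 5 of the 7 tested kidney epithelium markers were called lower and 1 higher. The fibroblast marker Col1a1 was called higher at 0.51 and the leukocyte marker Cd68 at 0.89. The part of these markers in the members' differences was not tested.

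The scaling between libraries bears on this comparison. With THZ1 in null cells, 30 members were lower and 9 higher under the median of ratios, beside 35.8% and 41.8% of all tested genes. Under upper-quartile scaling 30 were lower and 7 higher, beside 37.6% and 39.3% of all tested genes. The median of all tested genes moved to 0.04 and 0.01 under these scalings, and the members' median moved to -0.25 and -0.28. The members' median lay 0.27 below that of all genes with the values as deposited and 0.29 below it under both of these scalings. The sign of a small difference in null cells depends on the scaling, and 9 members turned positive under the median of ratios: Rbbp8, Brca1, Brip1, Wrn, Xrcc5, Msh3, Msh6, Ercc1 and Xpa. Of these, 7 also did so under the upper quartile, all but Brip1 and Msh6. The calls lost under the median of ratios left 5 homologous recombination, 4 end joining and 2 mismatch repair genes lower.

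**Figure D3:**
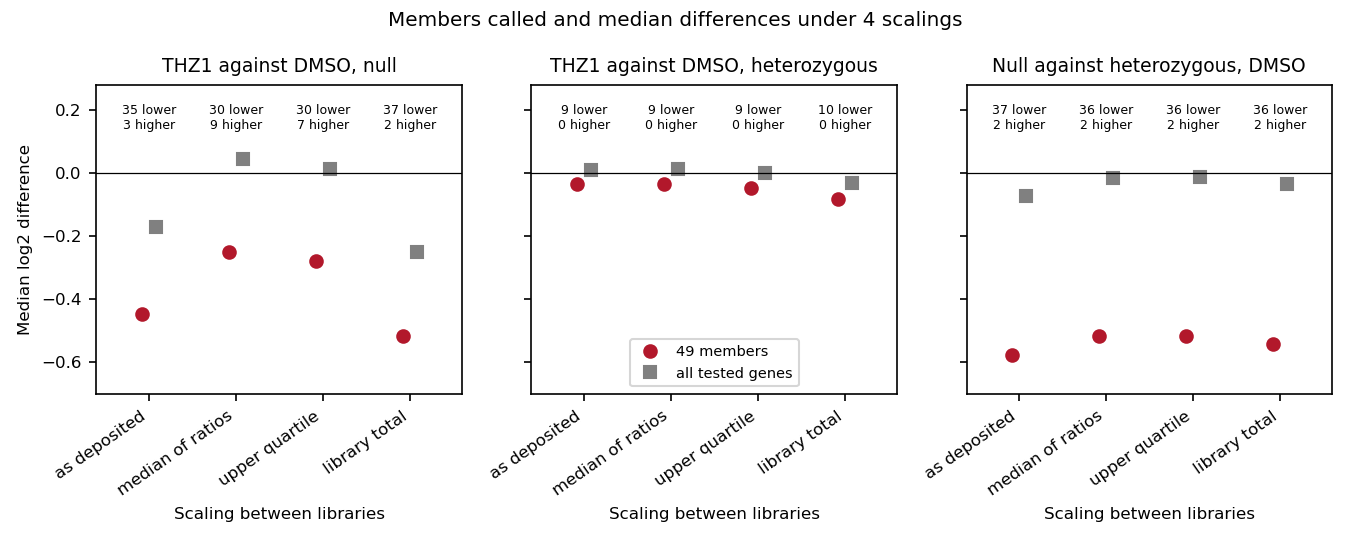
Each panel gives the median log2 difference of the 49 members (circles) and of all tested genes (squares) under the values as deposited and 3 other scalings, with the number of members called lower and higher above. In null cells both medians shift together, from -0.45 and -0.17 as deposited to -0.25 and 0.04 under the median of ratios, and in the panels for heterozygous cells and for the lines under DMSO they move less.

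Of the kinases, Atr had 2.28 and 2.93 FPKM with THZ1, against 5.33 and 4.89 FPKM with DMSO (-0.77 ± 0.09, adjusted p = 7.92e-06), and Chek2 had 12.2 and 13.5 FPKM with THZ1, against 19.1 and 17.5 FPKM with DMSO (-0.48 ± 0.06, adjusted p = 1.51e-05). Atm, with 2.86 and 3.33 FPKM with THZ1, against 4.47 and 4.79 FPKM with DMSO, changed by a similar amount (-0.46 ± 0.09, adjusted p = 0.000333). The 4 libraries separated by drug for these 3 kinases. Chek1 did not follow them. It had 5.51 and 5.42 FPKM with THZ1, against 5.18 and 4.81 FPKM with DMSO and was not called (0.11 ± 0.07, adjusted p = 0.169), but was called higher under the median of ratios (0.32, adjusted p = 0.000834) and the upper quartile (0.29, adjusted p = 0.00174).

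Mdc1 had 3.41 and 3.67 FPKM with THZ1, against 10.6 and 11.7 FPKM with DMSO (-1.42 ± 0.07, adjusted p = 4.75e-09). The subunits of the end-tethering complex were also lower. Rad50 had 4.67 and 5.62 FPKM with THZ1, against 12.9 and 12.02 FPKM with DMSO (-1.14 ± 0.08, adjusted p = 3.94e-08), and Nbn had 4.36 and 4.48 FPKM with THZ1, against 10.3 and 10.7 FPKM with DMSO (-1.08 ± 0.06, adjusted p = 1.23e-08). None of these groups overlapped. Mdc1 fell furthest of the members on this scale, but with a pseudocount of 0.1 it was at -1.63, behind Rad51c at -2.01, Fancf at -1.96 and Brca2 at -1.90. Trp53bp1 was called at -0.49. Rbbp8 and Topbp1 were not called, at -0.07 and 0.08, and Topbp1 was called higher under the median of ratios (0.32, adjusted p = 2.77e-05).

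Within homologous recombination the members did not move together. Rad51c fell further, with 0.96 and 0.67 FPKM with THZ1, against 3.63 and 3.43 FPKM with DMSO (-1.32 ± 0.09, adjusted p = 3.39e-08). So did Brca2, with 0.55 and 0.76 FPKM with THZ1, against 2.75 and 2.63 FPKM with DMSO (-1.16 ± 0.10, adjusted p = 2.13e-07). Rad51d had 3.93 and 4.82 FPKM with THZ1, against 10.8 and 10.2 FPKM with DMSO (-1.10 ± 0.08, adjusted p = 7.91e-08). These 3 did not overlap between THZ1 and DMSO. Brca1, in contrast, had 3.89 and 4.36 FPKM with THZ1, against 4.81 and 4.65 FPKM with DMSO and was not called (-0.16 ± 0.08, adjusted p = 0.0695), and neither was Brip1 (-0.16, adjusted p = 0.181) nor Wrn (-0.04). Without null THZ1 replicate 2, Brca1 was called lower at -0.23 (adjusted p = 0.0324), and Brip1 was called lower without that library or without null DMSO replicate 2 (adjusted p = 0.0448 and 0.0399). Under the median of ratios both had the opposite sign, Brca1 at 0.040 (adjusted p = 0.618) and Brip1 at 0.024 (adjusted p = 0.827). Bard1 was called higher, with 2.73 and 2.43 FPKM with THZ1, against 2.19 and 2.08 FPKM with DMSO (0.19 ± 0.08, adjusted p = 0.0426), though this call was lost without null THZ1 replicate 1, either null DMSO library or either heterozygous THZ1 library (adjusted p = 0.0661 to 0.215). The replicate number as a block also ended it (adjusted p = 0.0526). The remaining lower members were Palb2 at -0.45, Rad54l at -0.44, Blm at -0.35, Xrcc2 at -0.31 and Xrcc3 at -0.24, of which Blm, Xrcc2 and Xrcc3 lost their calls under the median of ratios (adjusted p = 0.126, 0.224 and 0.725). Blm also lost it without null DMSO replicate 2 (adjusted p = 0.0681) and Xrcc3 without null DMSO replicate 1 (adjusted p = 0.0579).

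The Fanconi gene that changed most was Fancf, an adaptor within the core complex, with 0.57 and 0.54 FPKM with THZ1, against 2.47 and 2.42 FPKM with DMSO (-1.15 ± 0.10, adjusted p = 2.44e-07). Fanci had 1.86 and 1.91 FPKM with THZ1, against 4.57 and 5.05 FPKM with DMSO (-1.01 ± 0.07, adjusted p = 8.46e-08), and Fance, which links the core complex to FANCD2, had 3.19 and 3.77 FPKM with THZ1, against 6.92 and 8.08 FPKM with DMSO (-0.92 ± 0.09, adjusted p = 7.84e-07). The drug and solvent libraries were apart for all 3. Fancd2 followed at -0.85, Fanca at -0.68, Fancg at -0.58 and Fancl at -0.43. Fancc and Fancm were not called, at 0.11 and 0.08, and both were called higher under the median of ratios (0.30 and 0.28). Fancf and Fance had not been called between the lines under DMSO.

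End joining genes were lower across the branch. Prkdc had 1.35 and 1.56 FPKM with THZ1, against 2.94 and 3.56 FPKM with DMSO (-0.79 ± 0.10, adjusted p = 1.14e-05), the ligase cofactor gene Xrcc4 had 5.02 and 4.42 FPKM with THZ1, against 8.26 and 7.85 FPKM with DMSO (-0.66 ± 0.07, adjusted p = 2.61e-06), and Xrcc6 had 12.2 and 13.1 FPKM with THZ1, against 20.3 and 19.3 FPKM with DMSO (-0.61 ± 0.06, adjusted p = 4.93e-07). In these 3 genes each THZ1 library was below each DMSO library. Lig4 was called at -0.41. Xrcc5 was called at -0.15 (adjusted p = 0.0402), but was at 0.087 under the median of ratios and at 0.053 under the upper quartile, and it lost its call without null THZ1 replicate 1, either null DMSO library or either heterozygous THZ1 library (adjusted p = 0.0579 to 0.219).

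For mismatch repair Exo1 had 1.92 and 2.41 FPKM with THZ1, against 3.56 and 3.63 FPKM with DMSO (-0.54 ± 0.08, adjusted p = 5.85e-05), Pms2 had 5.46 and 5.43 FPKM with THZ1, against 8.03 and 7.2 FPKM with DMSO (-0.42 ± 0.07, adjusted p = 0.000107), and Msh6 had 25.98 and 28.2 FPKM with THZ1, against 31.7 and 32.6 FPKM with DMSO (-0.24 ± 0.05, adjusted p = 0.000822). The groups did not overlap in any of these, but Msh6 stood at 0.00091 under the median of ratios (adjusted p = 0.987). Msh3 was not called at -0.03.

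Single-strand break repair split in direction. Lig3 had 4.56 and 4.88 FPKM with THZ1, against 10.6 and 11.1 FPKM with DMSO (-1.05 ± 0.07, adjusted p = 2.85e-08), and Xrcc1 had 13.3 and 13.3 FPKM with THZ1, against 26.3 and 26.4 FPKM with DMSO (-0.93 ± 0.04, adjusted p = 2.07e-09). Parp1 was called higher, with 31.7 and 31.2 FPKM with THZ1, against 26.8 and 26.7 FPKM with DMSO (0.23 ± 0.04, adjusted p = 0.000467). The 4 libraries separated by drug in all 3 genes.

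In nucleotide excision repair Ercc4 had 2.64 and 2.78 FPKM with THZ1, against 4.86 and 5.06 FPKM with DMSO (-0.68 ± 0.08, adjusted p = 4.6e-06), Xpc had 6.72 and 6.44 FPKM with THZ1, against 9.99 and 9.52 FPKM with DMSO (-0.50 ± 0.06, adjusted p = 1.15e-05), and Ddb2 had 2.45 and 2.29 FPKM with THZ1, against 3.64 and 3.19 FPKM with DMSO (-0.39 ± 0.09, adjusted p = 0.00123). Ercc5, whose product cuts on the 3′ side of a lesion, was called higher, with 20.1 and 21.2 FPKM with THZ1, against 15.8 and 15.9 FPKM with DMSO (0.36 ± 0.05, adjusted p = 4.21e-05). The groups did not overlap for these 4 genes. The call of Ddb2 did not hold in every fit that left out 1 library. Ercc1 and Xpa were not called, at -0.05 and -0.04.

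**Figure D4:**
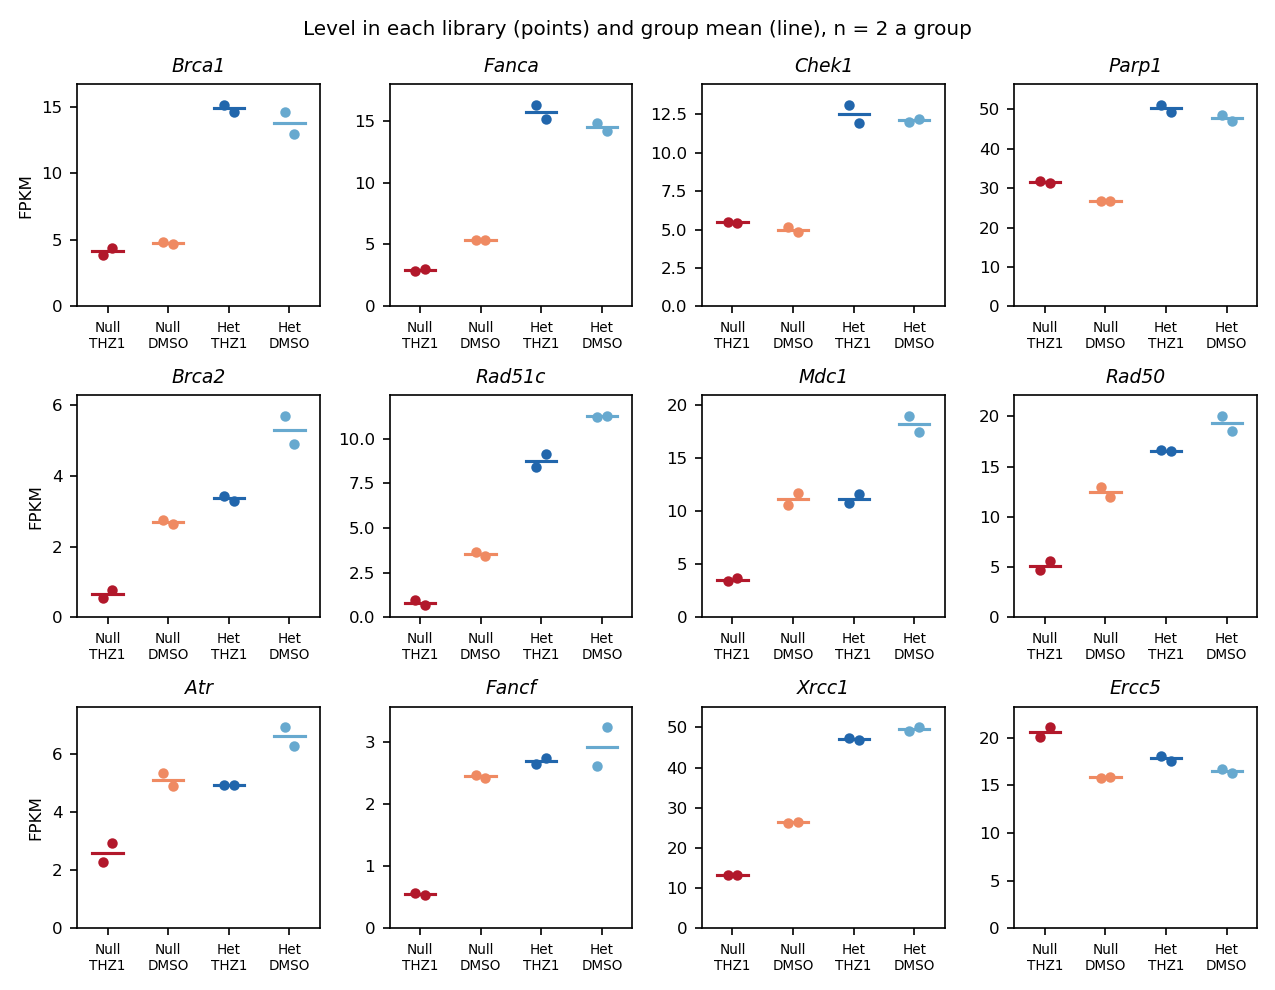
Points are the FPKM of 12 members in each of the 8 libraries and lines are group means, with axes from 0 and null THZ1 at the left of each panel. Brca1, Chek1 and Parp1 differ mainly between the lines, Mdc1, Brca2 and Atr are lower with THZ1 in both lines, and Fancf is low in the 2 null THZ1 libraries alone (0.57 and 0.54 FPKM).

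The difference between the lines under DMSO and the THZ1 response of null cells were set side by side for single members. The 2 comparisons share the null DMSO libraries, which enter them with opposite sign. Chek1 stood at -1.13 between the lines and at 0.11 with THZ1 in null cells, Brca1 at -1.36 and -0.16, and Parp1 at -0.81 and 0.23. Fancf stood at -0.18 between the lines and at -1.15 with THZ1, Fance at 0.12 and -0.92, and Xrcc4 at -0.11 and -0.66. Rad51c was called lower in each, at -1.43 and -1.32, as were 28 of the 49 members with Rad51c included. Between the lines alone 9 were called lower, with THZ1 alone 7, and in neither comparison 5. Of all tested genes 41% were lower between the lines and 51.1% with THZ1 in null cells. The share of all tested genes lower in both was not counted. Of the 6 members with the E2F motif, 2 were called lower with THZ1 in null cells, Rad51c and Brca2, against 24 of 32 without it. Over all tested genes the shares were 49.9% with the motif and 51.5% without it.

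The response to THZ1 was then compared between the lines by the interaction, the null response minus the heterozygous response. It was negative and called for 33 members and positive and called for 2, Parp1 and Ercc5, where 45.1% of all tested genes were called lower and 15.1% higher. The median over the members was -0.43, against -0.19 over all tested genes. It was below -1 for 2 members, Fancf and Rad51d, against 5.57% of all tested genes. Fancf had the largest difference of responses (-1.07 ± 0.14, adjusted p = 3.02e-05). Its level in heterozygous cells was 2.64 and 2.74 FPKM with THZ1, against 2.6 and 3.24 FPKM with DMSO, an overlap, where the null cells had shown none. Rad51d (-1.01 ± 0.11, adjusted p = 1.24e-05) had 12.6 and 11.7 FPKM with THZ1, against 13.1 and 12.8 FPKM with DMSO in heterozygous cells, and Rad51c stood at -0.99 ± 0.12, adjusted p = 2.8e-05. Next was Rad50 (-0.93 ± 0.11), which in heterozygous cells had 16.7 and 16.5 FPKM with THZ1, against 20.1 and 18.6 FPKM with DMSO. Xrcc1 (-0.86 ± 0.06) had 47.3 and 46.9 FPKM with THZ1, against 49.05 and 50.2 FPKM with DMSO in heterozygous cells, small shifts beside those in null cells. Fance (-0.81 ± 0.12) and Fanca (-0.79 ± 0.10) came next. In heterozygous cells Fance had 6.06 and 6.41 FPKM with THZ1, against 6.8 and 6.81 FPKM with DMSO, and Lig3 (-0.78 ± 0.10) had 12.3 and 11.5 FPKM with THZ1, against 15.1 and 13.9 FPKM with DMSO. Mdc1 (-0.76 ± 0.11) and Nbn (-0.76 ± 0.09, with 10.6 and 11.3 FPKM with THZ1, against 14.1 and 13.9 FPKM with DMSO in heterozygous cells) completed the 10 largest. Mdc1 was therefore lower with THZ1 in both lines and more so in null cells.

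The positive differences were small with the values as deposited. Parp1 stood at 0.16 ± 0.06, adjusted p = 0.0472 and had 51.2 and 49.3 FPKM with THZ1, against 48.5 and 47.1 FPKM with DMSO in heterozygous cells. Ercc5 stood at 0.26 ± 0.08, adjusted p = 0.0107, with 18.1 and 17.5 FPKM with THZ1, against 16.7 and 16.3 FPKM with DMSO in heterozygous cells. The call of Parp1 was lost in 7 of the 8 fits that left out 1 library (adjusted p = 0.0602 to 0.179), all but the one without heterozygous DMSO replicate 2, and that of Ercc5 without heterozygous THZ1 replicate 2 (adjusted p = 0.0503). Under the median of ratios 22 members were called negative and 4 positive, beside 28.6% and 32.9% of all tested genes. With the values as deposited, 3 of 5 end joining genes, 8 of 12 homologous recombination genes, 7 of 9 Fanconi genes and 5 of 6 sensors and mediators were called negative. The kinases and single-strand break repair had 2 each, and mismatch and nucleotide excision repair 3 each. Bard1, with 0.01, Chek1, with 0.06, and Wrn, with 0.06, were among the 14 members for which no difference of responses was called. So was Topbp1. Under the median of ratios Topbp1 was called positive (0.39, adjusted p = 0.000239), as was Chek1 (0.27, adjusted p = 0.0252). Under the upper quartile Topbp1 was at 0.37 (adjusted p = 0.000307) and Chek1 at 0.26 (adjusted p = 0.0342).

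**Figure D5:**
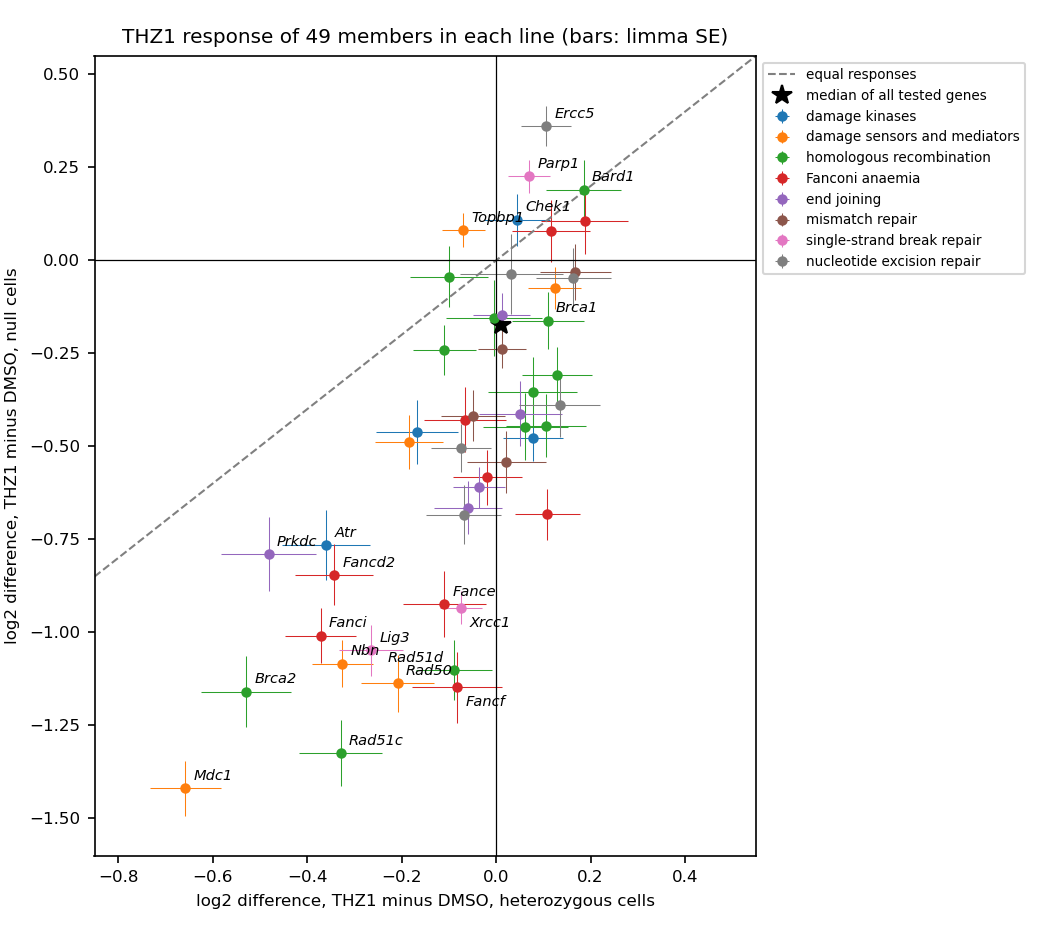
Each point is 1 member, with its THZ1 response in heterozygous cells on the x axis and in null cells on the y axis as log2 differences with limma's standard errors, and the star is the median of all tested genes. Most points lie below the dashed line of equal responses, and Mdc1 is the lowest on this scale at -1.42. In null cells 7 members are above 0, of which Ercc5, Parp1 and Bard1 were called higher.

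The last comparison set the lines against each other under THZ1. In null THZ1 cells 44 members were lower and 2 higher than in heterozygous THZ1 cells, where 58.1% of all tested genes were called lower and 25.1% higher, and the median was -1.02, against -0.28 over all tested genes. Under the median of ratios 42 members were lower and 3 higher, beside 41.3% and 40.3% of all tested genes. The difference was below -1 for 26 members, against 14.3% of all tested genes. Rad51c (-2.43 ± 0.09, adjusted p = 6.44e-11) and Fanca (-2.08 ± 0.07, adjusted p = 2.91e-11) were furthest apart. Fanca, for instance, had 2.86 and 3.04 FPKM in null cells, against 16.3 and 15.1 FPKM in heterozygous cells under THZ1. Exo1 at -1.84, Xrcc1 at -1.75, Brca1 at -1.63 and Fanci at -1.61 came next. Ercc1 and Ercc5 were the 2 members called higher in null cells (0.19 and 0.20), and the call of Ercc1 was lost without null THZ1 replicate 1, either null DMSO library or either heterozygous THZ1 library (adjusted p = 0.0524 to 0.187). Fancc, Xrcc5 and Xpa were not called, though Fancc was called lower without null THZ1 replicate 1 (-0.27) and Xpa without null THZ1 replicate 2 (-0.23). Xrcc5 was called higher under the median of ratios (0.40, adjusted p = 2.89e-05) and the upper quartile (0.38, adjusted p = 4.01e-05). Rbbp8 and Wrn lost their lower calls under both of these scalings (adjusted p = 0.338 to 0.804).

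Gene length was set beside these responses, since long genes take longer to transcribe. In null cells 9 of 11 members whose gene spans under 20 kb were lower with THZ1 (81.8%, against 56.5% of all tested genes of that length), 16 of 21 of 20 to 60 kb (76.2%, against 49.8%) and 10 of 17 over 60 kb (58.8%, against 42.1%). Across the 49 members Spearman's rho between span and the log2 difference was 0.17, and across 10718 tested genes it was 0.11. These values describe genes within the same 8 libraries, which are not independent replicates. Mdc1 is among the 11 short genes. In heterozygous cells rho was -0.01 across the members and -0.15 across all tested genes.

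Whether fragments were assigned by strand is not given in the sources used here, and 9 members share over 10% of their exon bases with a gene on the opposite strand. They are Lig3 (25.1%, with Rffl), Ddb2 (23.8%, with Acp2), Fancc (16.4%), Fanci (16.0%), Rad54l (15.4%), Trp53bp1 (15.0%), Fancf (15.0%), Fancl (13.7%) and Fanca (10.5%). For these 9 the reads of the member and of its neighbour may not have been told apart.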

How the data were processed

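RNA selected with oligo dT was measured in 8 libraries. The deposited FPKM values were used as the authors made them, 1 value per gene and library. Per the submitters' processing notes, Bowtie2, DESeq2 and the build mm10 were used, without versions; for the program behind the FPKM values, the annotation and the strand setting, nothing is given in the sources used here. Gene IDs were named from a RefSeq table of GRCm38.p6, which matched 18592 of 18631.

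Genes with a mean of at least 1 FPKM over all libraries (10731, with all 49 members) were kept, transformed to log2(FPKM + 1) and fitted with 1 mean per group in limma 3.58.1 (trend, R 4.3.3) over all 8 libraries, with 4 residual degrees of freedom. Tests were two-sided, with Benjamini-Hochberg adjustment across the 10731 genes, and called below 0.05. The pseudocount of 1 understates the changes of low genes such as Fancf. Per branch and comparison, library values were printed for up to 3 called members with the largest difference between lines or with THZ1 in null cells, for called members against their branch, and for the 10 largest differences of responses; values of the others were added after they were seen. The members and all lists were chosen with earlier results of these data known, so no list was tested as a whole. Alternatives were 3 other scalings, a pseudocount of 0.1, no filter or a minimum of 5 FPKM, the replicate block, the 4 libraries of a comparison alone, and each library left out. The numbered libraries within groups correlated at 0.9988 to 0.9992. Exon overlaps were read from GENCODE M21 for the same assembly. Some repair genes outside the set are given as counts only.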

Additional observations from a re-analysis of the deposited data

Results flagged for a closer look

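The results given here were picked out because the THZ1 response differed between the lines by the interaction test of limma, the null response minus the heterozygous response on the log2(FPKM + 1) scale, at an adjusted p below 0.05. This held for 35 of the 49 members, 33 negative and 2 positive, where 45.1% of all tested genes were called negative and 15.1% positive. Under the median of ratios it held for 22 negative and 4 positive members, beside 28.6% and 32.9% of all tested genes. Topbp1 (0.39) and Chek1 (0.27) were among these 4.

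Among the kinases the difference was -0.41 for Atr and -0.56 for Chek2. Among the sensors and mediators it was -0.93 for Rad50, -0.76 for Mdc1, -0.76 for Nbn, -0.30 for Trp53bp1 and -0.20 for Rbbp8. Homologous recombination genes gave -1.01 for Rad51d, -0.99 for Rad51c, -0.63 for Brca2, -0.55 for Rad54l, -0.51 for Palb2, -0.44 for Xrcc2, -0.43 for Blm and -0.27 for Brca1. Fanconi genes gave -1.07 for Fancf, -0.81 for Fance, -0.79 for Fanca, -0.64 for Fanci, -0.57 for Fancg, -0.50 for Fancd2 and -0.36 for Fancl.

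In end joining the values were -0.60 for Xrcc4, -0.57 for Xrcc6 and -0.46 for Lig4. In mismatch repair they were -0.56 for Exo1, -0.37 for Pms2 and -0.25 for Msh6. Single-strand break repair gave -0.86 for Xrcc1, -0.78 for Lig3 and 0.16 for Parp1. Nucleotide excision repair gave -0.61 for Ercc4, -0.52 for Ddb2, -0.43 for Xpc and 0.26 for Ercc5. Leaving out 1 library, not the same one for each gene, ended the calls of Atr, Trp53bp1, Rbbp8, Brca1, Blm, Fancl, Parp1 and Ercc5, at adjusted p values of 0.0501 to 0.179. At least 1 of the 3 other scalings ended the calls of Atr, Trp53bp1, Rbbp8, Brca1, Xrcc2, Blm, Fancl, Lig4, Msh6, Pms2, Xpc and Parp1. Under the median of ratios Msh6 was at -0.013 (adjusted p = 0.878) and Pms2 at -0.16 (adjusted p = 0.156). Of the 33 negative differences, 22 kept their call under every alternative run that tested them, and of the 2 positive ones 0 did.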

How the results depend on the processing

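Of the members called, 34 of 37 lower and 2 of 2 higher in null DMSO cells kept their call under every alternative run, 2 of 9 lower with THZ1 in heterozygous cells, 29 of 35 lower and 2 of 3 higher with THZ1 in null cells, 22 of 33 negative differences of responses, and 42 of 44 lower and 1 of 2 higher in null cells under THZ1. Scaled by the median of ratios and by the upper quartile, the members higher with THZ1 in null cells numbered 9 and 7 and their median was -0.25 and -0.28, with 4484 and 4218 of all tested genes higher in place of 2645. The positive differences of responses numbered 4 and 4, the median was -0.23 and -0.25, and of all tested genes 3065 and 3208 were negative and 3535 and 3384 positive in place of 4843 and 1620. Under THZ1 the members' median between the lines was -0.77 and -0.78, with 4323 and 4219 genes higher in place of 2689. For THZ1 in null cells the median of ratios turned Rbbp8 (0.16, adjusted p = 0.0173), Msh3 (0.17, adjusted p = 0.0489), Xrcc5 (0.087), Msh6 (0.00091), Brca1 (0.040), Brip1 (0.024), Wrn (0.17), Ercc1 (0.19) and Xpa (0.17) positive, and the upper quartile turned 7 of these 9, among them Xrcc5 (0.053). For Rbbp8 the difference of responses became 0.029 and 0.0096. The library totals gave 1 positive difference of responses, beside 12.3% of all tested genes. They also gave a median of -0.082 in heterozygous cells and 753 genes higher there in place of 1306. A pseudocount of 0.1 moved the median between the lines under THZ1 to -1.18. Without a filter, THZ1 in heterozygous cells called 4 members lower and 646 genes lower and 663 higher. Null THZ1 cells then had 1 member higher than heterozygous THZ1 cells, beside 17.9% of all tested genes. With 1 library left out at a time, members called with THZ1 in heterozygous cells numbered 3 to 11 lower and 0 to 1 higher, beside 402 to 1188 genes lower and 395 to 1346 higher, members with a positive difference of responses numbered 0 to 3, and members higher in null cells under THZ1 numbered 1 to 2. Without null DMSO replicate 1 and null THZ1 replicate 2 together, the 2 libraries with the most genes above 0 and a choice made after seeing the data, these last counts were 0 and 1. The cause of these changes was not tested.

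With replicate number as a block, 37 members were lower and 2 higher in null DMSO cells, beside 41% and 28.9% of all tested genes. With THZ1 in heterozygous cells, 9 and 0 were called, beside 9.95% and 12.3%, and in null cells, 35 and 2, beside 51% and 24.6%. For the difference of responses 31 and 2 were called, beside 45.1% and 15.2%. In null cells under THZ1 it was 44 and 2, beside 58.1% and 25%. Libraries with the same number deviated together only weakly (correlations of -0.09 to 0.14 over the 6 pairs of groups). This cannot show whether libraries of the same number were prepared together. Depth limits the low members most, since 0.54 FPKM of Fancf stands for about 16 fragments.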

Other observations

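Genes around the members also changed. Cdk12, the kinase that supports transcription of long repair genes, was higher with THZ1 in null cells (0.44 ± 0.08, adjusted p = 0.000312) and in heterozygous cells (0.50 ± 0.08, adjusted p = 0.0018), and the difference of the 2 responses was not called (-0.07 ± 0.11, adjusted p = 0.637). Cdk13, its close relative, was higher with THZ1 in null cells (0.46 ± 0.06, adjusted p = 2.5e-05) and was not called in heterozygous cells (0.14 ± 0.06, adjusted p = 0.143). Their cyclin Ccnk was lower in null than in heterozygous cells under DMSO (-0.31 ± 0.06, adjusted p = 0.000263) and lower with THZ1 in null cells (-0.16 ± 0.06, adjusted p = 0.0172), where it turned to 0.076 under the median of ratios (adjusted p = 0.199) and 0.041 under the upper quartile (adjusted p = 0.484). Cdk7, the target of the drug, was lower with THZ1 in null cells (-0.52 ± 0.08, adjusted p = 6.25e-05, but -0.31 under the median of ratios and -0.34 under the upper quartile) and was not called in heterozygous cells (-0.11 ± 0.08, adjusted p = 0.347).

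Trp53, the gene of the p53 tumour suppressor, was lower in null cells under DMSO at -0.41 and at -0.28 with THZ1 in null cells, a call lost under the median of ratios (-0.030, adjusted p = 0.564) and the upper quartile (-0.07, adjusted p = 0.184), while its target Cdkn1a, the cyclin kinase inhibitor p21, was higher in both comparisons at 0.50 and 0.42. For the lists that follow, the shares of all tested genes were 29% higher and 41% lower in null cells under DMSO. With THZ1 in null cells they were 24.6% higher and 51.1% lower, or 41.8% and 35.8% under the median of ratios. In heterozygous cells 12.2% were higher with THZ1 and 10.3% lower. Of 21 listed p53 targets, 13 were higher and 4 lower in null cells under DMSO, and 9 were higher and 9 lower with THZ1 in null cells (12 and 5 under the median of ratios). The repressor genes E2f7 and E2f8 were among the lowest E2F genes in null cells under DMSO, at -1.15 and -1.28, and E2f4 was at -0.91 with THZ1 in null cells. Of 78 tested repair genes outside the set, 55 were lower and 7 higher with THZ1 in null cells (46 and 16 under the median of ratios), 14 lower and 4 higher in heterozygous cells. Of 28 S-phase and mitosis genes, 15 were lower and 2 higher with THZ1 in null cells (median -0.15), but under the median of ratios 11 were lower and 12 higher (median 0.089), and 2 lower and 2 higher in heterozygous cells (median 0.02).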
